A study of Mus musculus with 20 samples.

Results

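The Dlk1-Dio3 microRNA cluster was examined here in mouse sperm DNA through 55 promoter probes, out of 22480 in all, that carry the name of a microRNA gene and start within the domain on chromosome 12 of mm10, in a window that opens upstream of Dlk1 and closes downstream of Mirg. A probe is the 2200 bp stretch from 2000 bp upstream to 200 bp downstream of the start of a gene, which for these genes is the start of the microRNA hairpin. Since the hairpins stand close together, most of the probes overlap, and joining overlapping probes left 14 regions. Of these, 6 consist of 1 probe and 8 hold the other 49 probes. Together the 55 probes count 121000 bp, but cover only 57579 bp of genome. The rule that picks the members uses name and position and no measured value, and every one of the 55 has values in each group.

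Sperm DNA came from 20 male offspring that were 8 weeks old, 5 in each of 4 groups. C57BL/6J DEHP and FVB/N DEHP males were born from mothers given 300 mg/kg/day of DEHP, a phthalate plasticizer, by gavage in corn oil from gestation day 9 to 19, and C57BL/6J control and FVB/N control males from mothers given corn oil alone on the same days. All were wild type mice of inbred strains, and the labels do not tell which of the 5 males of a group shared a mother. Any p-value below therefore concerns these samples only, and it rests in part on a trend of the variance over all probes. The 10 DEHP and the 10 control samples were sent for capture and sequencing as separate submissions, with another read length and another average depth, and what belongs to the treatment cannot be told apart from what belongs to the submission. In MBD-sequencing a protein domain that binds methylated CpG pulls down fragments that carry it, and the number of reads over a probe rises with the methylation of its CpG sites as well as with their number. A level below is the mean of 5 libraries in normalized reads per probe, with its SD, as deposited by the authors.

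The Dlk1-Dio3 domain is an imprinted region in which protein-coding genes such as Dlk1 and Rtl1 are expressed from the paternal chromosome, whereas the long non-coding RNAs Meg3, Rian and Mirg are expressed from the maternal chromosome. The microRNAs of this domain are processed from those maternal transcripts, and they form one of the largest microRNA clusters of the mouse genome. The control region between Dlk1 and Meg3 is methylated in sperm and unmethylated in oocytes, which is why the domain counts among the few paternally methylated imprinted loci. Several of the microRNAs, such as miR-127, miR-431, miR-434 and miR-136, are encoded opposite to Rtl1, a retrotransposon-derived gene needed in the placenta, and can cleave its messenger RNA.

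The probes follow each other over 186.386 kb, from the probe of Mir770 inside Meg3, which starts at 109561692, to that of Mir3072 inside Mirg, which ends at 109748077. On this stretch 53 probes belong to hairpins on the plus strand, and 2, Mir3544 and Mir299b, to hairpins on the minus strand. The first 8 regions hold 17 probes and run up to Mir882. Mir379 opens the remaining 6 regions, which hold 38 probes. The largest gap between neighbouring regions is 61.739 kb, between Mir370 and Mir882. In the GENCODE annotation the Mir770 region is wholly exonic to Meg3, the region of Mir434, Mir432 and Mir136 is 98.7% exonic to Rtl1 (109589193 to 109600330, minus strand), the regions of Mir341 and Mir370 lie within Rian, and the last 3 regions, from Mir382 on, lie within Mirg. The region from Mir379 to Mir667, with 16 probes the most crowded of all, and those from Mir376c to Mir300 and from Mir381 to Mir539 fell in no longer gene.

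All 55 members had a hairpin and mature microRNAs in RefSeq for GRCm38.p6, the assembly that mm10 stands for, with 102 mature sequences and 93 different seeds. The seed, bases 2 to 8, is the part with which a microRNA recognizes its targets, and 9 seeds were shared by mature sequences of different members. The sequences below are shown because their probes include those with the highest and the lowest control levels and 5 of the 7 separated ones, or because they show shared seeds. Seeds are in capitals. The hairpins encoded opposite to Rtl1, whose probes include the 3 highest in both controls, give the following main products.
miR-431-5p: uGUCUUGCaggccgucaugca
miR-434-3p: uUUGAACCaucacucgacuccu
miR-432: uCUUGGAGuagaucagugggcag
miR-136-5p: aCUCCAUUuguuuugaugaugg
The remaining hairpins whose probes are at the ends of the comparisons, Mir770 at the upstream end, Mir410 with the highest control level from Mir379 on and Mir494 with the lowest control level, give these.
miR-770-5p: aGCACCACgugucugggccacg
miR-410-5p: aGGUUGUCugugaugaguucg
miR-494-5p: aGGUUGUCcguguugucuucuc
The seed of miR-410-5p and of miR-494-5p is one and the same, although the probe of Mir410 was among the 4 highest and that of Mir494 the lowest in both controls. Repeated copies within the cluster show in the pairs miR-379-3p with miR-411-3p and miR-376c-5p with miR-376b-5p.
miR-379-3p: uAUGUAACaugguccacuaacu
miR-411-3p: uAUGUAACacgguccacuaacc
miR-376c-5p: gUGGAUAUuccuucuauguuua
miR-376b-5p: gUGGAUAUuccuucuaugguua

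The probes were also described as DNA. The number of CG sites ran from 20 to 82 with a median of 35, as compared with a range of 1 to 303 and a median of 45 over all probes. The authors listed no variant between C57BL/6J and FVB/N in any of the 55, whereas 53.9% of all probes are without one. Repeat-masked sequence took a median of 6.82% of a probe, against 19.2% over all probes. The motif TGCCGC, which ZFP57 recognizes in its methylated form at imprinted control regions, was found on either strand in 13 of the 55 (23.6%), as compared with 36.2% of all probes and 37.6% of the 14218 probes with 20 to 82 CG sites. Of these 13, 9 overlap or adjoin each other between Mir379 and Mir329, and counted by region the motif was in 4 of 14. Because a probe of 2200 bp usually holds the neighbouring hairpins too, between 1 and 5 with a median of 2, a level cannot be assigned to 1 hairpin.

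The contrast between the richest and one of the poorest probes can be seen in 300 bases of each, chosen as the stretch with most CG sites and printed with each CG in capitals (GRCm38.p6, plus strand). The stretch of the Mir434 probe lies at chr12:109592779-109593078 within the coding exon of Rtl1 and over the hairpin of Mir127, and has 15 CG sites.
Mir434: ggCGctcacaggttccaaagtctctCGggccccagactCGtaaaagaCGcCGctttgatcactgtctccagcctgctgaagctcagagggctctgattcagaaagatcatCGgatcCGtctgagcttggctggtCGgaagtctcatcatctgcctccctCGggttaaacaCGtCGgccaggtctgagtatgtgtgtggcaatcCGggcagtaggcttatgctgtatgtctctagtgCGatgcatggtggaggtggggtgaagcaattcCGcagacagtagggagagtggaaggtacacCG
That of the Mir494 probe lies at chr12:109713392-109713691, over the hairpin of Mir329, and has 7 CG sites.
Mir494: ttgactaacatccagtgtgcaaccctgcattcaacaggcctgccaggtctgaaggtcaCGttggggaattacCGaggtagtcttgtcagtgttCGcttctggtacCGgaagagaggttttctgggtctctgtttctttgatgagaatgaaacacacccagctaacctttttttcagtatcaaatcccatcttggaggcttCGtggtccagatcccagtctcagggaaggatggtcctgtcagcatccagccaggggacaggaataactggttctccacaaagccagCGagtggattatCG
Over their whole length the Mir434 probe has 82 CG sites and the Mir494 probe 21, which are the highest number of the cluster and the lowest but that of Mir673, which has 20.

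The labelled cell type was checked with promoters that are unmethylated in sperm. The 8 maternally methylated imprinted genes fixed for this check, such as Snrpn, Peg3 and Mest, had median levels of 3.55 normalized reads in controls and 4.2 in DEHP for C57BL/6J, and of 2.8 and 2.75 for FVB/N, beside 5, 5.3, 3 and 4.9 over all probes in the same order. Nnat was their highest, with 26.5, 9.5, 18.1 and 14.6. Snrpn alone of the 8 was separated between treatments, in C57BL/6J, with 0.5 ± 0.7 in control and 4 ± 1 in DEHP. In FVB/N it had 1.1 ± 1.2 and 4.4 ± 1.2 and was not separated. The 8 germ line genes, methylated in somatic cells, had medians of 7.95, 6.95, 8.75 and 7.15, which lies above the median of all probes in each group. The part of these differences in the results below was not tested. Levels per library were not used here, so no depth is given for any library, and the groups differed in scale. Summed over all probes, the deposited means gave 226268 in the controls of C57BL/6J and from 141092 to 153283 in the other groups.

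The cluster was among the most heavily captured parts of the promoter set in all 4 groups. The probes had median levels of 46.6 normalized reads in control and 25.4 in DEHP of C57BL/6J, and of 36.3 and 29.2 in those of FVB/N. Their median percentile among all probes was 97.4, 99.1, 98.3 and 99.4 in that order. Above the 90th percentile were 49, 54, 51 and 53 of the 55 probes, and no member was below the percentile of 79.1 that Mir494 had in C57BL/6J control. The cluster took 1.17%, 0.939%, 1.5% and 1.05% of the summed reads, where reads in the overlap of probes count more than once. Per CG site the members had medians of 1.27, 0.729, 1.01 and 0.817 normalized reads, as compared with 0.138, 0.131, 0.0844 and 0.122 over all probes, although a probe of the cluster had fewer CG sites in the median. The other 926 microRNA probes had median levels of 16.2, 10.8, 9.6 and 10.8, and the 9 microRNA probes within Sfmbt2, an imprinted gene on chromosome 2 with its own large microRNA cluster, had 7.3, 8.4, 3.7 and 11.6. The median number of CG sites was 29 in the other microRNA probes and 20 in those within Sfmbt2, as compared with 35 in the cluster. Reads per CG site were not computed for those 2 sets. These levels are descriptions of single sets with no test between them.

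**Figure D1:**
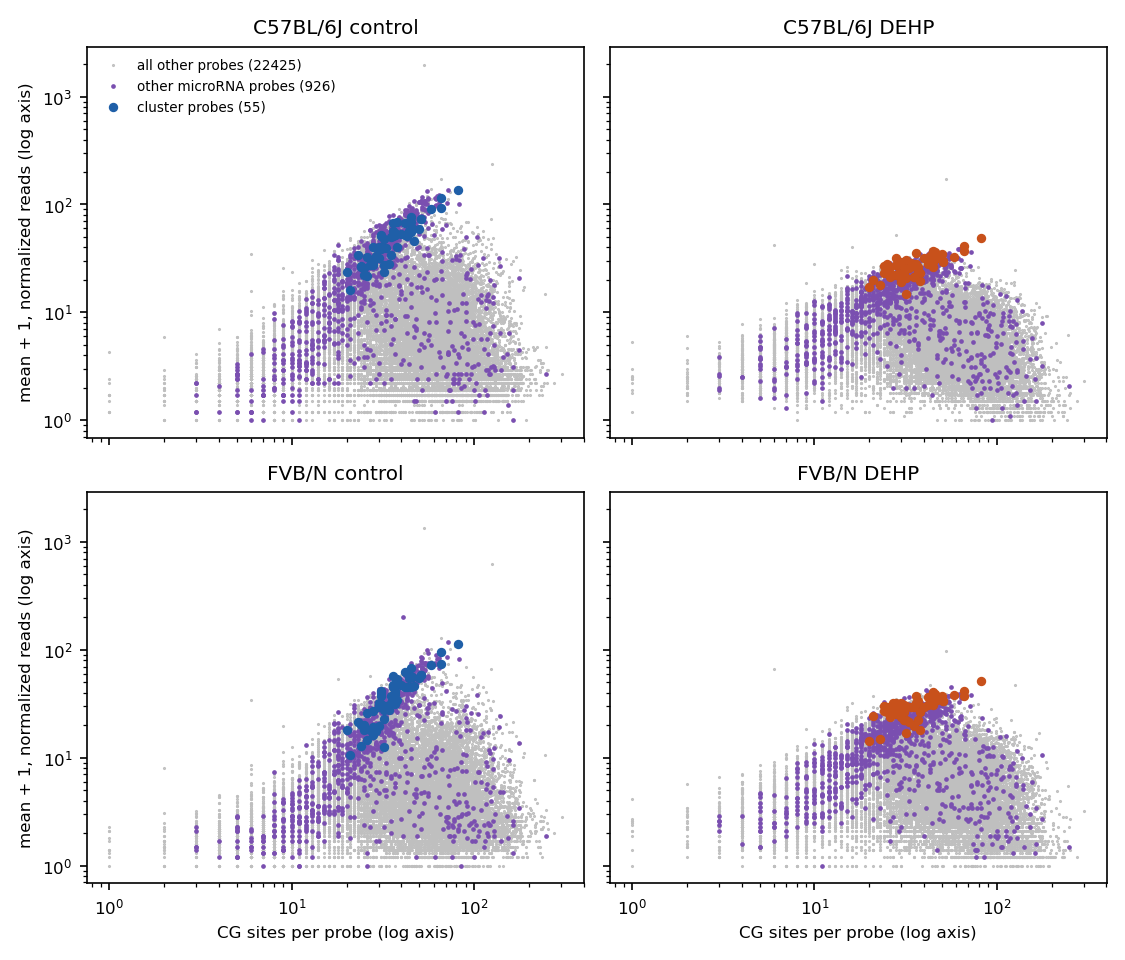
Level (mean of 5 libraries + 1, normalized reads, log axis) against the number of CG sites per probe (log axis) in each of the 4 groups, with the 55 probes of the cluster in colour, the 926 other microRNA probes in violet and all other probes in grey. The cluster lies along the upper edge of the cloud, between 20 and 82 CG sites, and its levels span less in both DEHP groups (highest over lowest 3.48 and 3.75) than in both control groups (8.94 and 11.7).

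Along the chromosome the level did not run in one direction but rose and fell between neighbouring regions. The highest region in each group was that of Mir434, Mir432 and Mir136 over the Rtl1 exon, with 113.3 ± 34.1 normalized reads in control and 41.5 ± 20.6 in DEHP of C57BL/6J, and 93.2 ± 13.2 and 42.4 ± 5.5 in those of FVB/N (mean ± SD, n = 5; for a joined region the SD is the mean of its probes' SDs and an upper limit). Next in the mean over the 4 groups were the region from Mir381 to Mir539, with 57.7 ± 21.9, 30.5 ± 10.8, 51.1 ± 13.8 and 34 ± 6, and that from Mir154 to Mir410, with 56 ± 14.1, 27.8 ± 10.8, 41.1 ± 9.64 and 30.6 ± 6.66 in the same order. The 3 lowest were those of Mir673, Mir882 and Mir770. Mir673, at the 3′ end of Meg3, had 22.6 ± 9.8, 16.1 ± 4.5, 17 ± 12.8 and 13.4 ± 3.1. Mir882, alone in the middle of the cluster, had 25.9 ± 8.8, 26 ± 10.7, 11.8 ± 11.3 and 28.9 ± 4.3. Mir770 had 33.1 ± 4.9, 20.4 ± 5, 31.3 ± 3.3 and 18.7 ± 3.1. The spread was wide in relation to these differences, with a median SD of 0.308, 0.382, 0.261 and 0.203 of the mean over the 55 probes. Thus in C57BL/6J control the region of Mir434 stood clear of that of Mir770, which in turn could not be told from that of Mir370 at 39.1 ± 8.7.

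**Figure D2:**
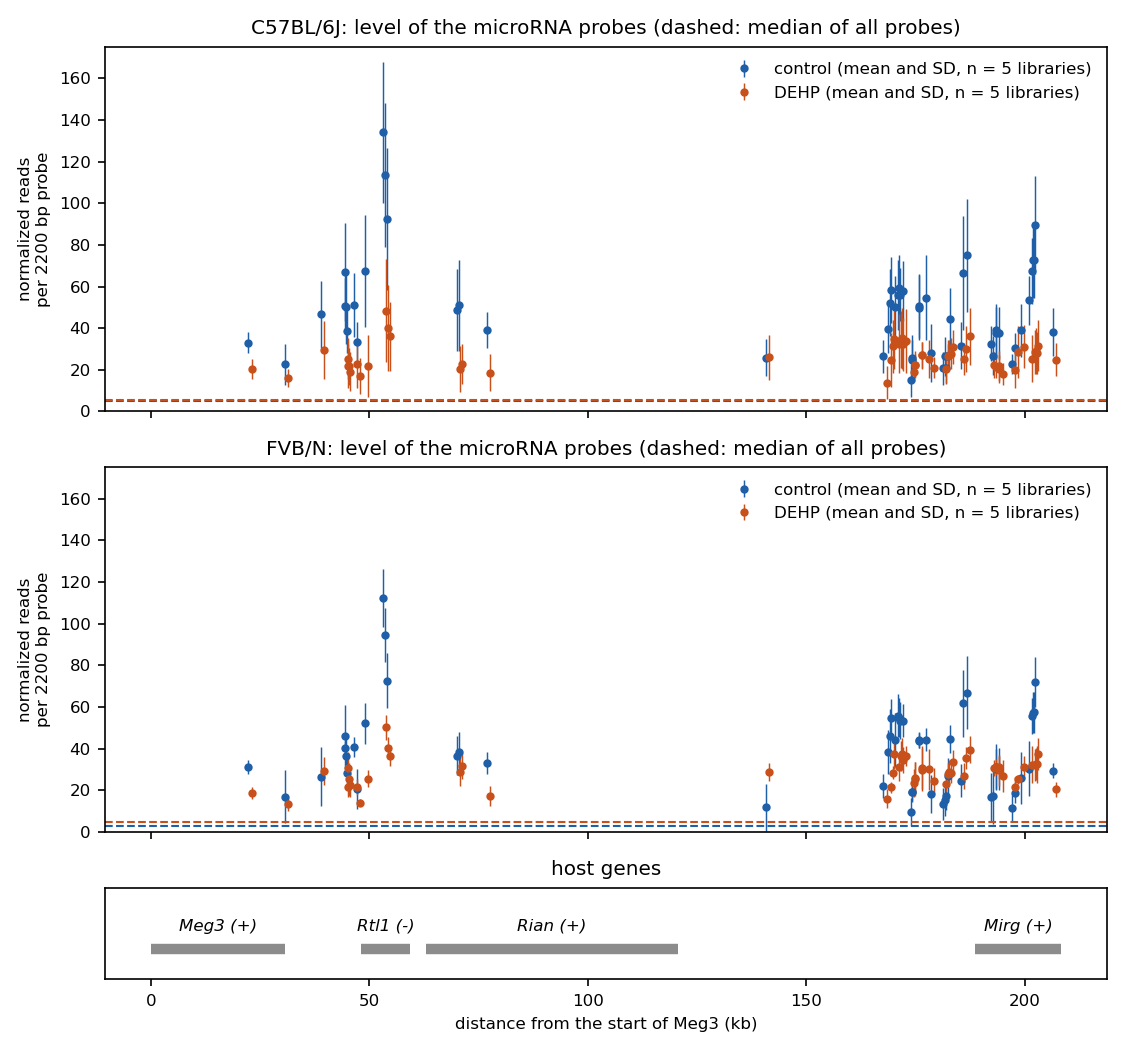
Level of each of the 55 probes (mean and SD of 5 libraries, normalized reads) against the distance of the hairpin's start from the start of Meg3 in kb, for C57BL/6J and FVB/N, with controls in blue, DEHP in orange and the median of all 22480 probes as dashed lines. Bars below give the host genes with their strands. The peak over Rtl1 reached 134.1 normalized reads at Mir434 in C57BL/6J control, and the DEHP levels of the cluster lie between 13.4 and 50.2.

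Grouped by position, the 9 probes before Rtl1 had a median of 46.6 normalized reads in C57BL/6J control and 31.3 in FVB/N control, the 4 probes over Rtl1 had 102.9 and 83.7, the 4 probes from Rtl1 to Mir379 had 43.9 and 34.9, and the 38 probes from Mir379 on had 39.4 and 30.7. In the DEHP groups the same sets had 21.6 and 21.6, 38.1 and 38.5, 21.5 and 28.9, and 27 and 30.3, the first of each pair being C57BL/6J. Rtl1 thus carried the top in each group, but by less in DEHP. Over the 14 regions Pearson's r of the distance from Meg3 with the log2 level was -0.07 in C57BL/6J control and -0.05 in FVB/N control, and that of the number of CG sites with the log2 level was 0.89 and 0.88. With DEHP the latter came to 0.71 and 0.58. These are descriptions over 14 regions that share their libraries, and with Spearman's rho the values for CG sites were 0.77 in control and 0.44 in DEHP of C57BL/6J, and 0.90 and 0.49 in those of FVB/N.

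Levels also differed within regions, as the following pairs show, which were chosen for their distance. In the region from Mir154 to Mir410, which spans 7482 bp of Mirg, the Mir154 probe with 32 CG sites had 22.8 ± 5 normalized reads in C57BL/6J control and the Mir410 probe with 58 CG sites had 89.5 ± 23.7. In FVB/N control the same probes had 11.6 ± 6.2 and 71.8 ± 12. The order was not that of the CG sites throughout, since Mir377 of this region, with 28, had 39 in C57BL/6J control and 25.9 in FVB/N control, above Mir154. Under DEHP the distance was smaller, with 19.8 ± 8.5 and 31.5 ± 12.2 for C57BL/6J and 21.6 ± 4.9 and 37.3 ± 7.6 for FVB/N. The choice of the pairs for their distance may itself favour such a fall. The most crowded region held such a pair too. There Mir329, a hairpin whose probe has 50 CG sites, had 57.9 ± 14.3 in C57BL/6J control and 53.5 ± 7.8 in FVB/N control, and Mir494, which follows it along the chromosome with 21 CG sites, had 15 ± 7.9 and 9.6 ± 6.7. Their DEHP levels were 33.9 ± 15.3 and 36.3 ± 4.8 for Mir329, and 19.1 ± 4.5 and 23.3 ± 6.7 for Mir494. Across the cluster the highest probe was 8.94 times the lowest in C57BL/6J control and 11.7 times in FVB/N control, but 3.48 times in C57BL/6J DEHP and 3.75 times in FVB/N DEHP.

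Other members, listed for reference, were as follows. Mir337, next to Rtl1, had 66.8 ± 23.5 normalized reads in control and 25.4 ± 9.7 in DEHP of C57BL/6J, and 45.9 ± 15 and 30.5 ± 7.7 in those of FVB/N. Mir341, an intronic hairpin of Rian, had 48.8 ± 19.6, 20.3 ± 10.9, 36.6 ± 9.3 and 28.8 ± 6.7 in the same order, and Mir370 of the same host had 39.1 ± 8.7, 18.7 ± 9.1, 33.1 ± 5.3 and 17.2 ± 4.9. All of them had a lower mean in DEHP in both strains.

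The hairpins from Mir379 on are known for their neuronal expression, which the transcription factor Mef2 drives. Mir379, the first of them, had 26.5 ± 7.8, 13.9 ± 7.8, 21.9 ± 5.8 and 16 ± 4.6, the lowest of all 55 in C57BL/6J DEHP, and Mir411, which shares the seed of its 3p product, had 39.4 ± 11.5, 24.9 ± 13, 38.4 ± 10.5 and 21.5 ± 2.7. Mir495 had 54.6 ± 20.3, 25.2 ± 9.1, 44.3 ± 5.4 and 30 ± 9.9. The miR-376 family, whose transcripts are edited from A to I in the brain, stood lower than Mir495 in both controls. Mir376c had 20.7 ± 8, 20.5 ± 7.2, 13.6 ± 7.7 and 22.8 ± 3.6, Mir376b had 21.1 ± 7.4, 27.2 ± 7, 17.2 ± 6.7 and 28.7 ± 5.8, and Mir376a had 26.8 ± 5.7, 27.7 ± 7.5, 26.7 ± 8.7 and 28.4 ± 4.9. The means of this family were higher in DEHP than in control in both strains, except for Mir376c in C57BL/6J, and none of them was separated. Mir134, which restrains the growth of dendritic spines, had 26.7 ± 9.4, 21.4 ± 5.2, 17.1 ± 13.3 and 31.1 ± 3.7, so that its mean was lower in DEHP in one strain and higher in the other. Mir409, with 45 CG sites, had 67.4 ± 15.8, 28.4 ± 10.5, 55.5 ± 8.7 and 32.2 ± 7.5.

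Prenatal DEHP was first compared with control in C57BL/6J. Here 50 of the 55 probes and 13 of the 14 regions had a lower mean in DEHP. The log2 ratio of DEHP over control (means + 1 normalized read) had a median of -0.70 over the regions and a range from -1.57 at Mir431 to 0.35 at Mir376b over the probes, as compared with a median of -0.10 over all probes. On equal sums over all probes the median over the regions was -0.16, with 3 of the 14 above 0, as compared with 0.33 over all probes. The regions with the lowest ratios were that of Mir434, Mir432 and Mir136 with -1.43, that from Mir337 to Mir431 with -1.22 and that of Mir341 and Mir1188 with -1.18, and those with the highest were Mir882 with 0.01, the region from Mir376c to Mir300 with -0.07 and Mir673 with -0.46. The deposited table gives no value of single libraries, so groups were called separated only where the means and SDs leave no room for an overlap, that is, where the means ± 1.79 SD do not meet. By this strict measure 0 of the 55 probes and 0 of the 14 regions were separated, beside 1.42% of all probes separated with DEHP lower and 0.249% with DEHP higher. Shares among other probes of like level are given below. The highest member shows why. Mir434 had 134.1 ± 33.9 normalized reads in control and 48.4 ± 24.7 in DEHP, so that its control libraries could not be below 73.3 and its DEHP libraries not above 92.7, and an overlap is possible. Mir431 had 67.5 ± 26.9 and 22 ± 14.9, and Mir410 had 89.5 ± 23.7 and 31.5 ± 12.2.

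limma's moderated statistic was computed from the same means and SDs, on normalized reads without a log, and adjusted over all probes by Benjamini-Hochberg. With it, 25 of the 55 probes in 8 regions were lower in C57BL/6J DEHP at the threshold of 0.05, and 0 were higher. Of all probes, 13.3% were called lower and 2.92% higher. The smallest adjusted p of limma was 0.000795 for Mir431. Called lower were all 10 probes from Mir337 to Mir136 around and over Rtl1, the 2 of Mir341 and Mir1188 and that of Mir370 in Rian, and 12 of the 38 from Mir379 on, with Mir410 (limma's adjusted p = 0.00261) and its neighbours Mir409, Mir412 and Mir369 among them. Not called were, for example, Mir770 and Mir673 in Meg3, with log2 ratios of -0.67 and -0.46, and the 5 probes from Mir376c to Mir300, whose log2 ratios lay between -0.51 and 0.35. With the median log2 ratio of all probes brought to 0, 19 probes in 8 regions were called lower by limma and 0 higher, beside 9.82% and 3.93% of all probes. limma draws the variance of a probe toward a trend over all probes, and did so more strongly in C57BL/6J than in FVB/N. As deposited, a moderated t of -3.03 gave limma's unadjusted p of 0.00248 for Mir665 in C57BL/6J. For Mir411 in FVB/N, -3.05 gave 0.00593. The numbers of calls in C57BL/6J and in FVB/N are therefore not from like tests.

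In FVB/N, as deposited, the fall at the top of the cluster was smaller than in C57BL/6J and some probes of low level had a higher mean in DEHP. The order of the strains depends on the scale, since with the median log2 ratio of all probes at 0 Mir434 had -1.35 for C57BL/6J and -1.50 for FVB/N, and the medians over the regions were -0.57 and -0.87. The log2 ratio had a median of -0.40 over the 14 regions, with 10 below 0, whereas the median over all probes was 0.35. The probes ranged from -1.21 at Mir432 to 1.22 at Mir882. Separated with DEHP lower were 2 regions and 7 probes, and 0 with DEHP higher, as compared with 0.859% and 0.774% of all probes. The regions were that of Mir434, Mir432 and Mir136, with a log2 ratio of -1.12, and that of Mir770. Mir370 had a log2 ratio of -0.91 and was not separated. Mir434 had 112.4 ± 13.9 normalized reads in FVB/N control and 50.2 ± 6.1 in FVB/N DEHP, so that no control library was below 87.4 and no DEHP library above 61.3. Mir432 had 94.6 ± 12.8 and 40.4 ± 5.2, and Mir136 had 72.7 ± 13 and 36.7 ± 5.2. At Mir770, which is processed from Meg3, the levels were 31.3 ± 3.3 and 18.7 ± 3.1 and the log2 ratio was -0.71. The other 3 separated probes were Mir3544 with 40.4 ± 3.1 and 21.4 ± 4.8, Mir3070a with 40.8 ± 4.8 and 21.6 ± 3.9, and Mir431 with 52.2 ± 9.9 and 25.6 ± 4. All of the separated probes but Mir770 lie within 44.9 to 54.3 kb from the start of Meg3, next to or over Rtl1.

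The highest ratios in FVB/N came from probes with low control levels. Among the regions, Mir882 was followed by those from Mir376c to Mir300 and from Mir382 to Mir453, with log2 ratios of 0.25 and 0.24. Mir882 had 11.8 ± 11.3 normalized reads in control and 28.9 ± 4.3 in DEHP, and Mir494 had 9.6 ± 6.7 and 23.3 ± 6.7, and neither was separated. limma called neither of them as deposited, with adjusted p of 0.0562 and 0.0614. limma called 7 probes in 3 regions lower, namely Mir3544, Mir3070a, Mir431, Mir434, Mir432, Mir136 and Mir410, beside 1.33% of all probes, and 0 higher, beside 1.37%. The smallest adjusted p of limma were 0.0063 for Mir432 and 0.00675 for Mir434. Mir770, separated above, had an adjusted p of 0.0906 by limma. All 7 were also among the 25 that limma called in C57BL/6J. That is 100% of the list of FVB/N and 28% of that of C57BL/6J. The same overlap was not computed over all probes, and calls in C57BL/6J were common at such levels. For means over the groups of 40 to 100 normalized reads, limma called 97.5% of other probes with like numbers of CG sites lower there. The share of the members was 68.8%. For means of 20 to 40 these shares were 71.4% and 38.2%.

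**Figure D3:**
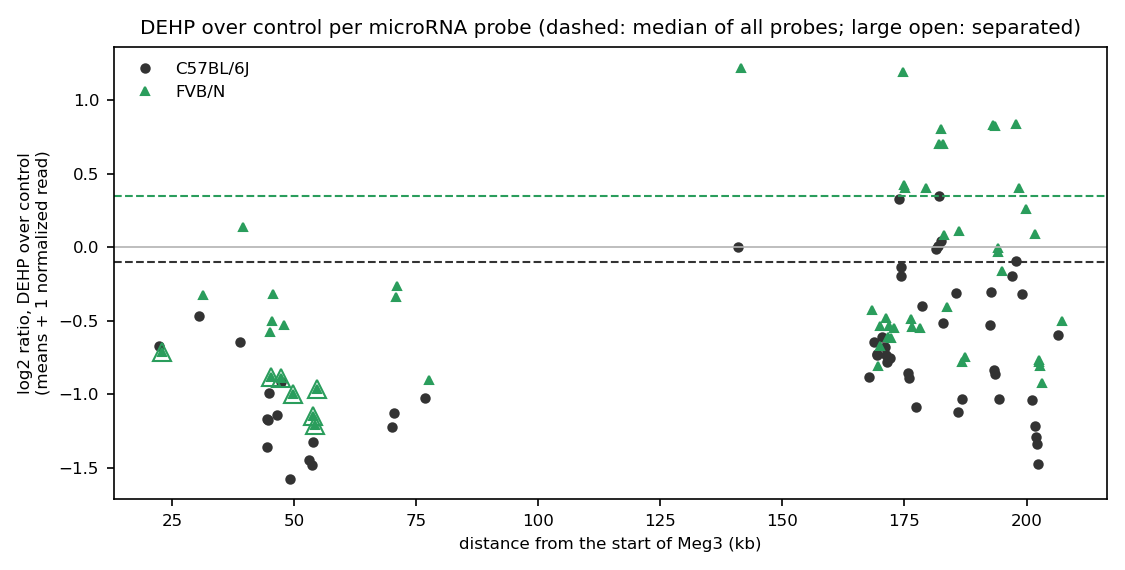
Log2 ratio of DEHP over control (means + 1 normalized read) of each probe against the distance from the start of Meg3 in kb, for C57BL/6J (black circles) and FVB/N (green triangles), with the median of all probes as a dashed line in the same colour. Large open symbols mark the 7 probes separated in FVB/N, and none was separated in C57BL/6J.

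How much of the cluster was called in FVB/N changed with the scale of the groups. When the control means were multiplied by 1.39, which brings the median log2 ratio of all probes to 0, 24 probes and 4 regions were separated with DEHP lower, beside 2.3% of all probes, and 0 with DEHP higher, beside 0.231%. The regions added were those of Mir370 and Mir3072, and the probes added included Mir411, Mir329, Mir495, Mir409 and Mir410. On that scale limma called 26 probes in 9 regions lower, beside 3.51% of all probes, and 0 higher, beside 0.289%. Of the 26, 13 were also called in C57BL/6J, an overlap that was not computed over all probes. In C57BL/6J the same scaling left the count of separated probes at 0, beside 0.881% of all probes lower and 0.325% higher. The direction of the cluster's median did not depend on it, since it was below 0 and below the median of all probes in both strains on each of the scales run.

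The log2 ratio was lower in probes of high level, in the cluster and outside it. Over the 55 probes, Pearson's r of the log2 of the mean over the 4 groups with the log2 ratio was -0.72 for C57BL/6J and -0.73 for FVB/N, which is a description over overlapping probes that share their libraries, and the mean over the groups is itself part of the ratio. Over the 14 regions it was -0.69 and -0.48. To set the members beside other promoters of like level, all probes with 20 to 82 CG sites were divided by their mean over the 4 groups. Between 40 and 100 normalized reads, the 163 other probes had a median log2 ratio of -1.65 for C57BL/6J and -1.02 for FVB/N, and the 16 members had -1.25 and -0.77. Between 20 and 40, the 1325 other probes had -1.08 and -0.35, and the 34 members had -0.66 and -0.21. Between 10 and 20, the 2941 other probes had -0.66 and 0.10, and the 5 members had -0.19 and 0.70. Against the median of other probes of their own stratum, 16 of 16, 28 of 34 and 4 of 5 members lay higher for C57BL/6J, as did 14 of 16, 20 of 34 and 3 of 5 for FVB/N.

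The share of called probes depended on the strain, the stratum and the scale. In C57BL/6J fewer of the members than of the others were called. Between 40 and 100 normalized reads, limma called 68.8% of the members and 97.5% of the other probes lower, and between 20 and 40 it called 38.2% and 71.4%. Separated with DEHP lower, as deposited, were 0 of 16 members and 23.3% of the others in the upper stratum. In the lower stratum these were 0 of 34 members and 8.45% of the others. In FVB/N, as deposited, limma called 31.2% of the members and 55.8% of the others in the upper stratum, and 5.88% and 7.85% in the lower. Separated there were 4 of 16 members (25%) and 32.5% of the others in the upper stratum, but 3 of 34 members (8.82%) and 4.75% of the others in the lower. With the median log2 ratio of all probes at 0, the members of FVB/N were called more often in both strata, by limma at 93.8% against 82.2% and at 32.4% against 24.6%, and as separated at 87.5% against 62% and at 29.4% against 15%. As deposited, the members' median log2 ratio was above that of the other probes in each of these strata and strains. These medians and shares describe the sets and were not tested against each other.

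**Figure D4:**
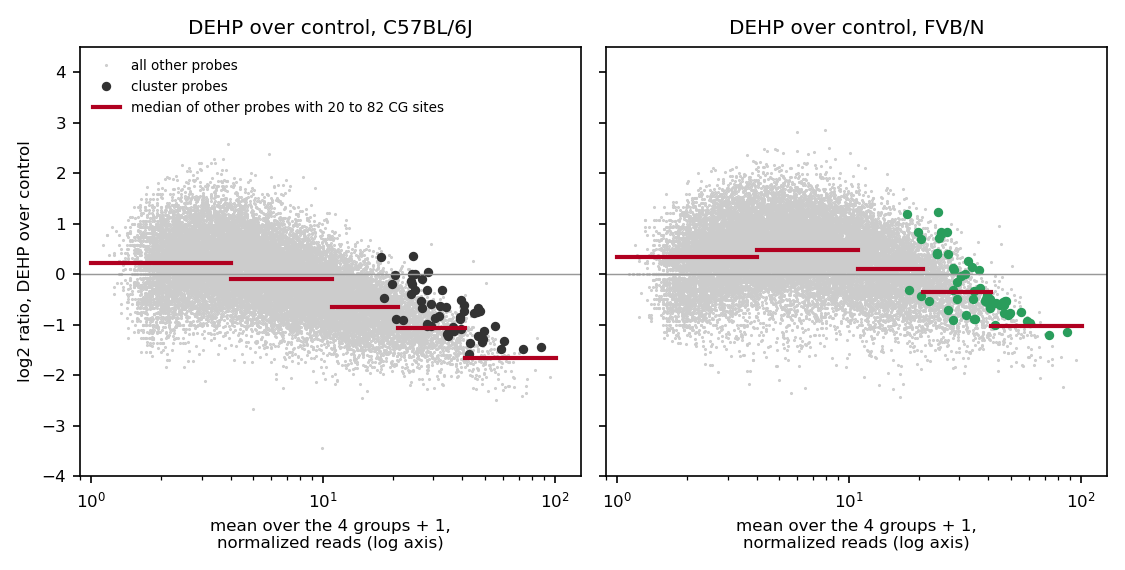
Log2 ratio of DEHP over control against the mean over the 4 groups + 1 (normalized reads, log axis) for C57BL/6J and FVB/N, with the 55 probes of the cluster in colour and all others in grey. Red lines give the median of the other probes with 20 to 82 CG sites in each stratum of level, which runs from 0.23 at the lowest to -1.65 at the highest level in C57BL/6J, and from 0.34 to -1.02 in FVB/N, and most members lie above the line of their stratum.

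Between strains, the levels of the cluster could not be separated in either treatment. In controls, 53 of 55 probes had a higher mean in C57BL/6J than in FVB/N, with a median log2 ratio of 0.38 over the regions, but the median over all probes was 0.54. On equal sums over all probes the cluster's median turned to -0.28. No probe and no region was separated, beside 1.06% of all probes separated with C57BL/6J higher and 0.0267% with C57BL/6J lower. Mir882, with 25.9 ± 8.8 in C57BL/6J control and 11.8 ± 11.3 in FVB/N control, and Mir493, with 46.6 ± 15.9 and 26.5 ± 14.1, had the highest ratios of the regions, with log2 ratios of 1.07 and 0.79, followed by the region from Mir382 to Mir453 with 0.46. The lowest were Mir770 with 0.08, the region from Mir381 to Mir539 with 0.17 and that from Mir379 to Mir667 with 0.18. In the DEHP groups the median over the regions was -0.09, and that over all probes 0.04. The regions ran from -0.51 for that of Mir382 to Mir453 and -0.47 for that of Mir341 and Mir1188 up to 0.25 for Mir673 and 0.27 for Mir3072, with 0 members separated beside 0.307% of all probes separated with C57BL/6J higher and 0.0311% with C57BL/6J lower. By limma, as deposited, 0 members were called in either treatment at the adjusted threshold. There 8 in controls, all higher in C57BL/6J, and 1 in DEHP had an unadjusted p under 0.05, as did 24.2% and 8.39% of all probes. Of all probes limma called 2.93% higher and 0.0267% lower in C57BL/6J in controls, and 0.912% and 0.0712% with DEHP. With the median log2 ratio of all probes at 0, limma called 0 members too. On that scale 9 members in controls and 4 in DEHP, all lower in C57BL/6J, had limma's unadjusted p under 0.05. The shares of all probes were 5.94% and 8.19%.

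The response to DEHP was then compared between strains. Its log2 ratio was lower in C57BL/6J than in FVB/N for 53 of 55 probes and for 13 of 14 regions, with a median difference of -0.32 over the regions, but over all probes the difference was -0.50. On equal sums over all probes the cluster's difference turned to 0.31, with 10 of the regions above 0. limma's test of the difference of differences, added after the data were seen, was of differences in normalized reads and not of the log2 ratios above. On the deposited scale it called 0 of the 55 probes (smallest adjusted p = 0.156), beside 0.0133% of all probes with the difference above 0 and 0.0578% with it below. An unadjusted p of limma under 0.05 was found for 6 members and for 17.1% of all probes. On equal sums it called 0 members (1 with an unadjusted p under 0.05, as had 4.9% of all probes), beside 0.0133% and 0%. Probe by probe the responses ran in parallel, with Pearson's r of 0.84 over the 55 probes and 0.78 over the 14 regions, which again share libraries, submission and, for the probes, sequence. The same r over all probes was not computed, and the ratio fell with level outside the cluster too, in both strains. Mir882, Mir494, Mir376b and Mir654 were at the upper end in both strains, and Mir434, Mir432 and Mir431 at the lower end in both.

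Of 9 other genes of the locus that had been listed, 8 were measured, and their promoters were unlike each other. Dlk1, a Notch-like protein that holds back the formation of fat cells, had 1.7 ± 0.7 normalized reads in control and 2.5 ± 0.7 in DEHP of C57BL/6J, and 3.1 ± 4.7 and 3.5 ± 0.9 in those of FVB/N, below the lowest microRNA probe in each group. The probe at the start of Meg3 had 25.8 ± 10.3, 9.2 ± 2.7, 7 ± 2 and 5.2 ± 0.7 in the same order. Rian, host of Mir341 and Mir370, had only 12 CG sites and 4.8 ± 2.8, 6.7 ± 2.9, 1.9 ± 2.1 and 9.2 ± 4.4. Rtl1 had 32.9 ± 12.3, 19.4 ± 6.4, 19.3 ± 7.1 and 21.5 ± 3.7, and Mirg had 42.6 ± 4, 26.5 ± 8.3, 19.2 ± 7.2 and 25.3 ± 5.9. Thus the promoters of Rtl1 and Mirg were in the range of the microRNA probes and those of Dlk1 and Rian were below it. DEHP and control were separated for 1 of the 8 in C57BL/6J, namely Begain, a neighbour upstream of Dlk1, with 19.9 ± 3.1 and 8.9 ± 1.6, and for 0 in FVB/N. As deposited, C57BL/6J and FVB/N were separated in controls for Mirg, which was higher in C57BL/6J, as were 1.06% of all probes. On that scale the median log2 ratio over all probes was 0.54, and Mirg was not examined on the other scales.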

How the data were processed

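MBD-sequencing of sperm DNA from 20 males in 4 groups was analysed. Per the paper's methods and the submitters' notes, alignment to mm10 was done with Bowtie 0.12.7, ambiguous pairs, discordant pairs and pairs without CpG were removed, and the pairs over a promoter probe were counted and then normalized in edgeR. The signal used here, deposited by the authors with 1 decimal, is a mean and an SD of 5 libraries. Numbers of CG sites and of strain variants were deposited as counts per probe by the authors. The table's columns of fold changes, p-values and FDR hold the authors' own comparisons and were not used. The analysis used neither values nor depths per library, and means and SDs allow no count test.

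Groups came from the labels. Overlapping probes were joined, and means and SDs were averaged over the probes of a region. Log2 ratios used a pseudocount of 1, whereas limma was run on normalized reads without a log. Groups were called separated where means ± 1.79 SD, the farthest that 1 of 5 values can lie from their mean, did not meet after widening by 0.05 for rounding. Where they apply to a value, the alternatives were equal sums, the median log2 ratio over all probes at 0, a filter on a mean of at least 1, the first probe of a region, single probes, a pseudocount of 0.1, and limma 3.58.1 (R 4.3.3; variance moderation with a trend on level, Benjamini-Hochberg over 22480 probes). The cluster, the rule for its members and the lists were chosen with earlier results of these data known, although the rule uses no measured value. Named were the first and last member, the 3 highest and 3 lowest regions, separated regions, the 3 regions with the largest ratios in each direction, and a fixed list of reference members. Mir127 and Mir433 of that list, and Dio3, were not analysed here. Sequences and annotation came from RefSeq and GENCODE for GRCm38.p6, in which 53 of the 55 probes had the deposited number of CG sites. Python 3.11.15, numpy 2.4.6, pandas 2.3.3, scipy 1.17.1 and matplotlib 3.10.9 were used.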

Additional observations from a re-analysis of the deposited data

How the results depend on the processing

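The count of separated regions for DEHP against control in C57BL/6J was 0 and went to 8 by limma, as deposited and with the median of all probes at 0. In FVB/N it was 2 regions, and went to 4 with that median at 0, to 7 when every probe was counted on its own, and to 9 by limma on that scale. The median log2 ratio in C57BL/6J moved from -0.70 to -0.16 with equal sums, and that in FVB/N from -0.40 to -0.87 with the median at 0. The medians that turned were C57BL/6J over FVB/N in controls, from 0.38 to -0.28 with equal sums and to -0.28 with the median at 0, and the response of C57BL/6J minus FVB/N, from -0.32 to 0.31 and 0.27. In all 46 other alternatives, -0.16 included, no median changed sign and no count moved by more than 1.5 times. The cause of these shifts was not tested beyond the scaling itself. No paired analysis was possible because only means and SDs per group were used, and for the same reason no library could be left out in turn. Separated groups are a lower limit, since a wide SD hides separations.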
